A study of Macaca mulatta with 8 samples.

Results

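MOCOS and SUOX are a pair of genes tied to molybdenum, a metal that vertebrate cells use in only a few enzymes. They were followed in rhesus macaque granulosa cells, the somatic cells of the ovarian follicle, before and after an ovulatory stimulus. All probe sets whose platform annotation gave exactly 1 of these symbols were taken, so the pair is 2 of 14132 measured genes and 3 of 52766 probe sets, 1 for MOCOS and 2 for SUOX. Both genes were chosen by their log2 differences between the groups on these same arrays, which lie near opposite ends of the range. Their differences between the groups are therefore described without a test.

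Molybdenum works in these enzymes as part of the molybdenum cofactor, an organic ring system that is built in steps from GTP and then receives the metal. MOCOS, the molybdenum cofactor sulfurase, adds a sulfur atom that xanthine dehydrogenase and aldehyde oxidase need in order to act. SUOX, sulfite oxidase, sits between the mitochondrial membranes and turns sulfite from sulfur amino acids into sulfate; it uses the cofactor without the sulfur that MOCOS adds.

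The animals were macaques (Macaca mulatta) stimulated with FSH in both groups. The 4 arrays before hCG come from follicles that received FSH alone, and the 4 arrays after hCG from follicles that also received hCG, a hormone that acts like the ovulatory surge of LH, and matured in vivo. The sample labels name cumulus-oocyte complexes as the source, whereas the series design names mural granulosa cells from the follicle wall. Ages, animals behind each replicate and the hours between hCG and collection are not stated in the labels. P-values therefore measure only the spread between these samples, which may be technical.

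MOCOS was near the low end of the signal on every array before hCG and high on every array after it. The log2 intensity of its probe set, MmugDNA.31716.1.S1_s_at, was 3.32, 3.73, 3.42 and 3.93 on arrays 1 to 4 before hCG. It was 10.76, 10.86, 10.34 and 10.81 on arrays 1 to 4 after hCG. The groups were far apart: the lowest array after hCG stood 6.40 log2 units above the highest array before it, while the arrays within a group spanned 0.62 before and 0.52 after hCG.

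On the linear scale the intensities of MOCOS were 9.95 to 15.3 before and 1294 to 1858 after hCG. The means were 3.60 ± 0.28 before and 10.69 ± 0.24 after hCG on the log2 scale (SD, n = 4), a log2 difference of 7.09 (SE 0.17), or 137-fold. It was the largest increase of all 52766 probe sets. Array 3 after hCG had the lowest MOCOS value of its group.

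The size of the MOCOS difference leans on the values before hCG, which lie at -2.18 to -1.61 log2 units from the median of their own array. Before hCG 15.1% of probe sets had a lower mean, and after hCG 96.7% did. With 32 added to each intensity, which damps differences among dim values, the log2 difference was 5.25, the 5th largest increase among 14132 genes. After hCG MOCOS stood 4.88 to 5.36 log2 units above the median of its array. The suffix _s_at of its name marks probes shared by more than 1 transcript, and no second MOCOS probe set was there to set beside it.

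SUOX went the other way, but its probe sets differed in how far. On the brighter probe set, MmugDNA.20323.1.S1_at, the log2 intensity was 9.999, 9.59, 9.14 and 9.48 on arrays 1 to 4 before hCG. After hCG it was 4.98, 5.59, 6.44 and 4.41. All 4 values after hCG lay below all 4 before, with a gap of 2.70, and the arrays after hCG were spread more widely, over 2.02 log2 units against 0.86 before.

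The mean of the brighter SUOX probe set was 9.55 ± 0.36 before and 5.35 ± 0.87 after hCG (SD, n = 4), a log2 difference of -4.20 (SE 0.38). That is 18.4-fold lower, the 3rd largest decrease among the genes and the 7th among all probe sets. In linear intensity it was 562 to 1023 before hCG and 21.3 to 86.5 after. After hCG its values lay around the middle of the array, from -1.05 relative to the array median on array 4 to 0.98 on array 3. With 32 added to each intensity the log2 difference was -3.38, the 5th largest decrease among the genes.

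On the dimmer SUOX probe set, MmugDNA.17269.1.S1_at, the log2 intensity was 8.03, 7.94, 7.74 and 7.87 on arrays 1 to 4 before hCG. It was 6.92, 6.86, 6.95 and 7.14 after hCG. The groups again did not overlap, with a gap of 0.60, but the log2 difference was -0.93 (SE 0.11), or 1.90-fold lower. This ranked 1563 among the decreases of all probe sets. The means were 7.90 ± 0.12 before and 6.97 ± 0.12 after hCG (SD, n = 4).

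Brighter and dimmer refer to the mean over all arrays. The brighter SUOX probe set minus the dimmer one averaged 1.66 before and -1.61 after hCG. The average of both SUOX probe sets differed by -2.56. Within the group after hCG, array 4 was lowest on the brighter SUOX probe set and highest on the dimmer one. The probe sets share the direction of the SUOX difference and leave its size unsettled, and which part of the transcript each covers was not examined here.

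**Figure D1:**
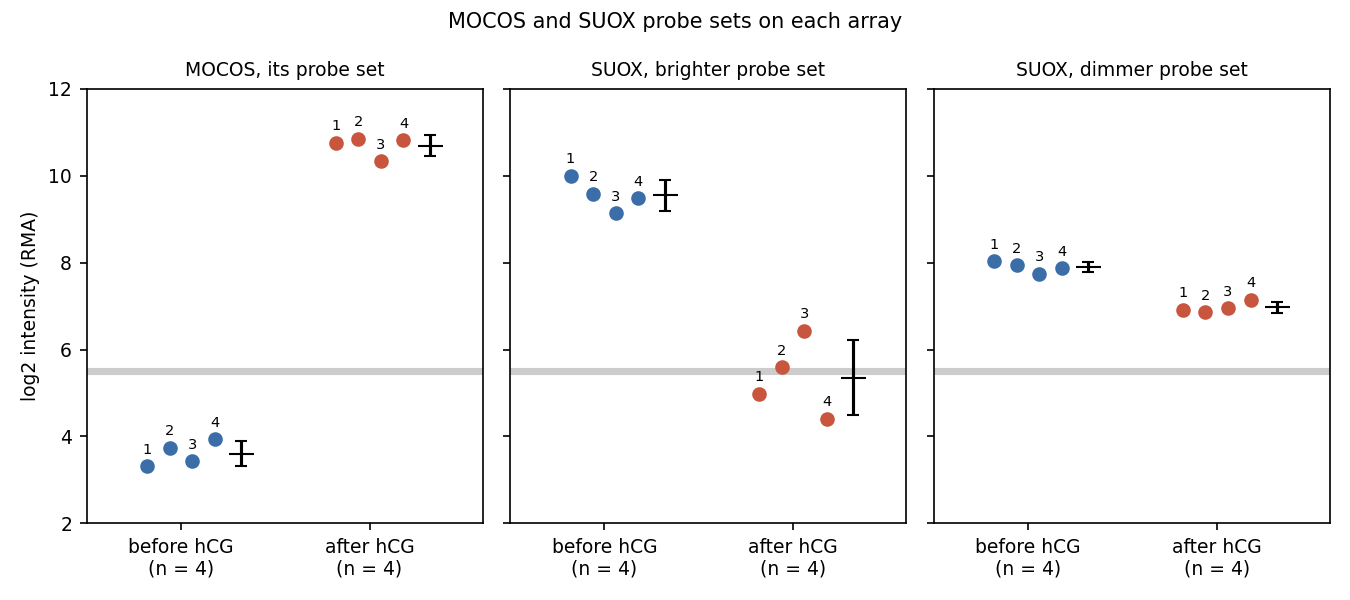
Log2 intensity (vertical axis) of the MOCOS probe set and the SUOX probe sets on each array before hCG (blue) and after hCG (red), numbered by replicate; black bars are the mean ± SD of 4 arrays and the grey band is the range of the array medians. MOCOS lies between 3.32 and 3.93 before and between 10.34 and 10.86 after hCG, and the brighter SUOX probe set falls further than the dimmer one, from 9.55 to 5.35 against 7.90 to 6.97 in the means.

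The groups did not overlap for any of the 3 probe sets; across the arrays this held for 19.3% of 52766 probe sets (8.38% higher and 10.9% lower after hCG), and for 27.2% of 14132 genes (11.8% higher and 15.4% lower). Of all probe sets, 14.1% passed an adjusted p of 0.05 (limma, Benjamini-Hochberg), 7.24% as higher and 6.85% as lower. Since MOCOS and SUOX were chosen for this contrast, nothing is read from that count.

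The array medians were 5.44 to 5.54 (log2), and arrays correlated at 0.984 to 0.988 within the group before hCG and 0.974 to 0.984 within the group after it. Array 3 after hCG stood apart on some measures. It had the largest difference between the 3′ and 5′ probe sets of ACTB, a measure of how far signal leans to the 3′ end (5.18 log2 units against 4.47 to 4.83 on the other 7 arrays), and the lowest mean of 6 leukocyte markers (5.69 against 7.08 to 7.70). The ACTB difference was thus at least 4.47 on every array. How much of it reflects RNA integrity, and its bearing on the SUOX probe sets, was not tested. Without it the log2 difference was 7.21 for MOCOS and -4.56 for the brighter SUOX probe set.

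The granulosa label was checked against its markers. FSHR, FOXL2 and GJA1 had no matched probe set, and the other 12 of 15 were measured, with a mean log2 intensity of 10.39 to 10.74 before and 9.04 to 9.27 after hCG, and 11 of them fell, as CYP19A1, the aromatase, did by 2.08 (adjusted p = 0.00053, limma). Over all genes, 11.3% passed as higher and 12.5% as lower. Markers of other cells were mixed. Of 4 theca markers 2 fell, of 6 leukocyte markers 1 fell, of 7 oocyte markers 1 rose (KIT, a receptor that other cells carry too), and of 7 endothelial markers none passed (limma; 2 had an unadjusted p under 0.05, 1 in each direction). The mean levels were 5.27 to 5.71 before and 5.05 to 5.42 after hCG for theca, 7.08 to 7.53 and 5.69 to 7.70 for leukocytes, 5.77 to 5.97 and 6.14 to 6.39 for oocytes (where KIT rose by 3.07, 5 of 7 genes differed below 0 and the median was -0.15), and 5.70 to 5.99 and 5.59 to 6.28 for endothelium. Their part in the MOCOS and SUOX differences was not tested, and in bulk RNA fewer cells of a type and less RNA per cell cannot be told apart.

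The other genes of the molybdenum pathway were not part of the choice of MOCOS and SUOX. Their lists were nevertheless chosen with earlier results of these data known. Of 6 measured genes that build the cofactor or feed it, 1 fell, 5 did not pass and none rose (limma, adjusted p over 14132 genes; 4 of the 6 were lower and none higher at an unadjusted p under 0.05). The median log2 difference was -0.39, beside -0.09 over all genes, of which 23.8% passed (11.3% higher and 12.5% lower).

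The gene that fell was NFS1, a cysteine desulfurase that supplies the sulfur for the cofactor's dithiolene group and for iron-sulfur clusters. NFS1 was 8.61, 8.45, 8.45 and 8.44 (log2) on arrays 1 to 4 before hCG and 7.47, 7.25, 7.61 and 7.13 after, a log2 difference of -1.12 (SE 0.13, adjusted p = 0.000228). The groups did not overlap.

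MOCS1, which starts the ring synthesis, differed by -0.16 on its brightest probe set (adjusted p = 0.429). Another of its 4 probe sets went from 5.55 ± 0.11 to 6.26 ± 0.58 (SD, n = 4) without overlap, with an adjusted p over all probe sets of 0.0899, so the MOCS1 probe sets do not share a direction. MOCS2, the molybdopterin synthase, differed by -0.63 (SE 0.26, adjusted p = 0.114), with array 3 highest before hCG (7.41) and lowest after (5.74).

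MOCS3, which hands sulfur to MOCS2, was 6.96 to 7.15 before and 6.59 to 6.91 after hCG, without overlap, but the log2 difference of -0.33 did not pass (adjusted p = 0.0591). It did pass without array 4 after hCG (adjusted p = 0.043) and with 32 added to each intensity (adjusted p = 0.0324). Under the remaining settings MOCS3 did not pass (adjusted p up to 0.141). GPHN, gephyrin, which inserts the metal and also anchors receptors at synapses, differed by -0.25 (SE 0.17, adjusted p = 0.311). MFSD5, a transporter of molybdate, differed by -0.46 (adjusted p = 0.0987). It passed only after repeated quantile normalization (adjusted p = 0.0375), with an adjusted p of up to 0.229 under the remaining settings.

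Of the enzymes that MOCOS serves, 1 could be measured. XDH, xanthine dehydrogenase, an enzyme of purine breakdown, was 4.85, 4.83, 4.59 and 4.64 (log2) on arrays 1 to 4 before hCG. It was 4.53, 4.65, 4.68 and 4.54 after. The groups overlapped, all 8 values lay below the array medians, and the log2 difference of -0.13 (SE 0.11) did not pass (adjusted p = 0.415). Its dimmer probe set differed by 0.073 (adjusted p over all probe sets 0.687). AOX1, aldehyde oxidase, had no probe set under its symbol and was not analysed here.

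The mitochondrial amidoxime-reducing enzymes MTARC1 and MTARC2 reduce N-hydroxylated compounds with the cofactor. MTARC1 was 7.95, 7.40, 7.40 and 7.39 before and 6.89, 7.06, 6.85 and 7.33 after hCG, without overlap, a log2 difference of -0.50 just short of the threshold (adjusted p = 0.0549). It passed without array 4 after hCG (adjusted p = 0.0331) and after repeated quantile normalization (adjusted p = 0.0409). When the probe sets of each gene were averaged, its adjusted p was 0.0472. MTARC1 has 1 probe set, so its own difference was the same there. Under the remaining settings MTARC1 did not pass (adjusted p up to 0.122). MTARC2 differed by -0.25 (SE 0.27, adjusted p = 0.556). Their electron partners were CYB5B, the outer mitochondrial cytochrome b5, which differed by -0.32 (SE 0.10, adjusted p = 0.0471), and CYB5R3, its reductase, which differed by -0.28 (adjusted p = 0.131).

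Of these 5 enzymes and partners, 1 passed as lower, CYB5B, none as higher and 4 did not pass (limma; 3 were lower and none higher at an unadjusted p under 0.05), with a median of -0.28. The share past the threshold was 20%, beside 23.8% of all genes (11.3% higher and 12.5% lower). The CYB5B call was weak. It was lost without any 1 of the 8 arrays (adjusted p = 0.0624 to 0.123), and the average of its 5 probe sets differed by -0.041 (adjusted p = 0.795).

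**Figure D2:**
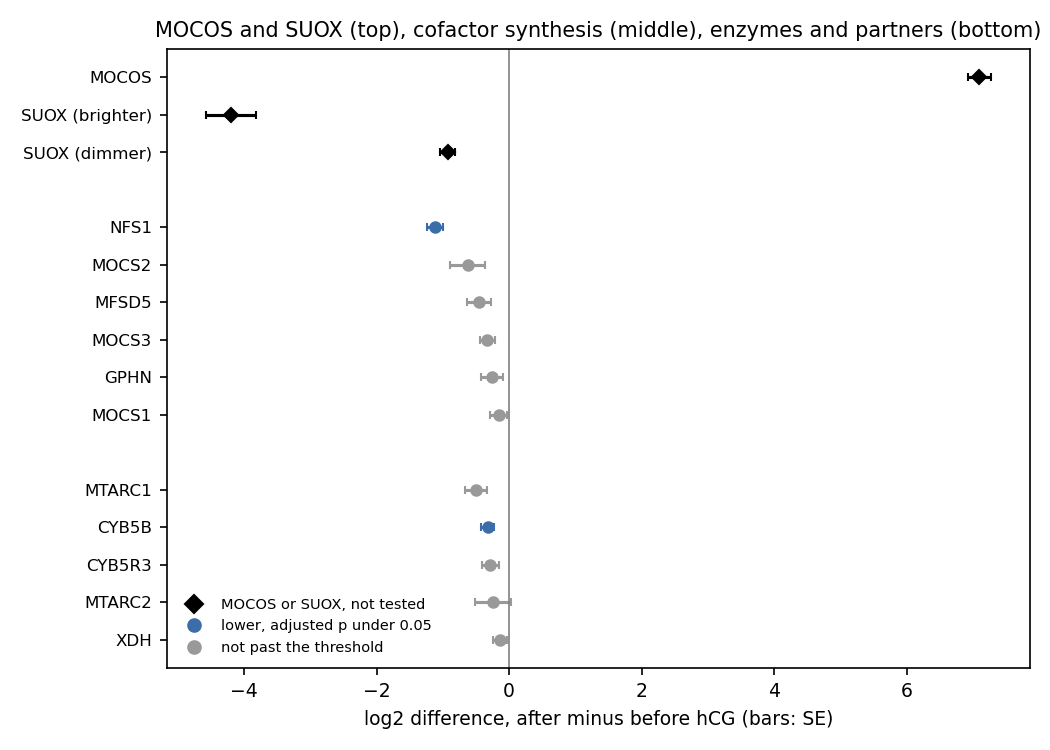
Log2 difference, after minus before hCG, with its SE (horizontal axis) for MOCOS and the SUOX probe sets (black diamonds), genes of cofactor synthesis and supply, and molybdenum enzymes with their partners, 4 arrays per group. MOCOS (7.09) and SUOX (-4.20 and -0.93) were chosen by these differences; the other genes run from -1.12 for NFS1 to -0.13 for XDH.

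SUOX removes the sulfite made from cysteine and methionine, so the genes of that pathway were set beside it. Among the 24 measured here, 3 were higher and 6 lower past the threshold, 15 did not pass, and the median was -0.03. That is 37.5% past the threshold, beside 23.8% of all genes (11.3% higher and 12.5% lower), whose median was -0.09. Cysteine dioxygenase (CDO1) and the transsulfuration enzymes CBS and CTH had no probe set under a single matching symbol. The genes that rose include 2 of the 3 measured enzymes that make methionine from homocysteine, MTR and BHMT; the third, BHMT2, differed by 0.27 (adjusted p = 0.19). MTR, methionine synthase, was 8.01, 7.69, 7.69 and 7.72 before and 9.38, 9.92, 10.27 and 10.71 after hCG, a log2 difference of 2.29 (SE 0.25, adjusted p = 0.000172).

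BHMT, which uses betaine for the same step, went from 4.85 ± 0.033 to 6.28 ± 0.51 (SD, n = 4, log2 difference 1.43, adjusted p = 0.00136). MSRA, which repairs oxidised methionine, rose by 0.84 (SE 0.12). In the other direction, AHCY, which frees homocysteine, fell by 1.22 (SE 0.14, adjusted p = 0.000285), and its values of 10.76 to 11.16 before and 9.49 to 10.01 after hCG did not overlap.

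SLC25A10, a mitochondrial carrier of dicarboxylates that also moves sulfite and thiosulfate, fell by 0.92 (SE 0.14, adjusted p = 0.0012). SLC26A2, a sulfate transporter of the cell surface, fell by 0.88 (adjusted p = 0.0202), with overlap between the groups and with none of its 4 other probe sets past the threshold. GCLC, which starts glutathione synthesis from cysteine, fell by 0.51 (adjusted p = 0.0116), and 1 of its 4 other probe sets also fell, by 0.67 (adjusted p over all probe sets 0.0254). The other 3 did not pass, and the average of all 5 differed by -0.033. The call of SLC26A2 was lost without array 2, 3 or 4 before hCG or array 4 after hCG (adjusted p = 0.0513 to 0.0586).

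Among the genes that did not pass, GOT1 (-0.36, adjusted p = 0.0546, limma) and MPST (0.34, adjusted p = 0.0824) had groups without overlap. The 15 genes that did not pass ran from -0.36 to 0.55. They include the enzymes nearest to sulfite on the mitochondrial side: SQOR, which oxidises hydrogen sulfide, differed by 0.55 (adjusted p = 0.14), ETHE1, a persulfide dioxygenase that makes sulfite, by 0.37 (adjusted p = 0.337), and TST, a sulfurtransferase that joins sulfite to sulfur, by -0.03 (adjusted p = 0.864). These 3 genes were picked for their place in the pathway after their values were seen.

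MOCOS activates XDH, an enzyme of purine breakdown, so purine breakdown and salvage were described as well. Here 3 of 15 were higher and 3 lower past the threshold, 9 did not pass, and the median was 0.0045. That is 40.0% past the threshold, beside the 23.8% of all genes. ADA, adenosine deaminase, was 7.37, 7.31, 6.73 and 7.28 before and 9.14, 9.75, 10.49 and 8.82 after hCG, a log2 difference of 2.38 (SE 0.33, adjusted p = 0.000711). The other 2 probe sets of ADA did not pass (0.50 and -0.26).

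ADK, adenosine kinase, rose by 1.77 (SE 0.20, adjusted p = 0.0002), and its other probe set rose by 1.84. NT5C, a nucleotidase of the cytosol, rose by 1.01 (SE 0.16), but its dimmer probe set differed by 0.007. PNP, purine nucleoside phosphorylase, which makes the bases that XDH oxidises, fell by 1.67 (SE 0.42, adjusted p = 0.0165).

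The values of PNP were scattered and overlapped: 10.15, 8.98, 10.44 and 10.40 before and 9.03, 8.86, 8.01 and 7.41 after hCG, with array 2 before hCG apart from its group. Its call was lost without array 3 or array 4 before hCG (adjusted p = 0.0509 and 0.0521). NT5E, which makes adenosine at the cell surface, fell by 0.83 on its brightest probe set (adjusted p = 0.00231), while 1 of its other probe sets rose by 0.87, and the average differed by -0.041. APRT, which salvages adenine, fell by 0.63 (adjusted p = 0.0299); this call was lost without any 1 array before hCG or array 2 after hCG (adjusted p = 0.0547 to 0.0816).

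**Figure D3:**
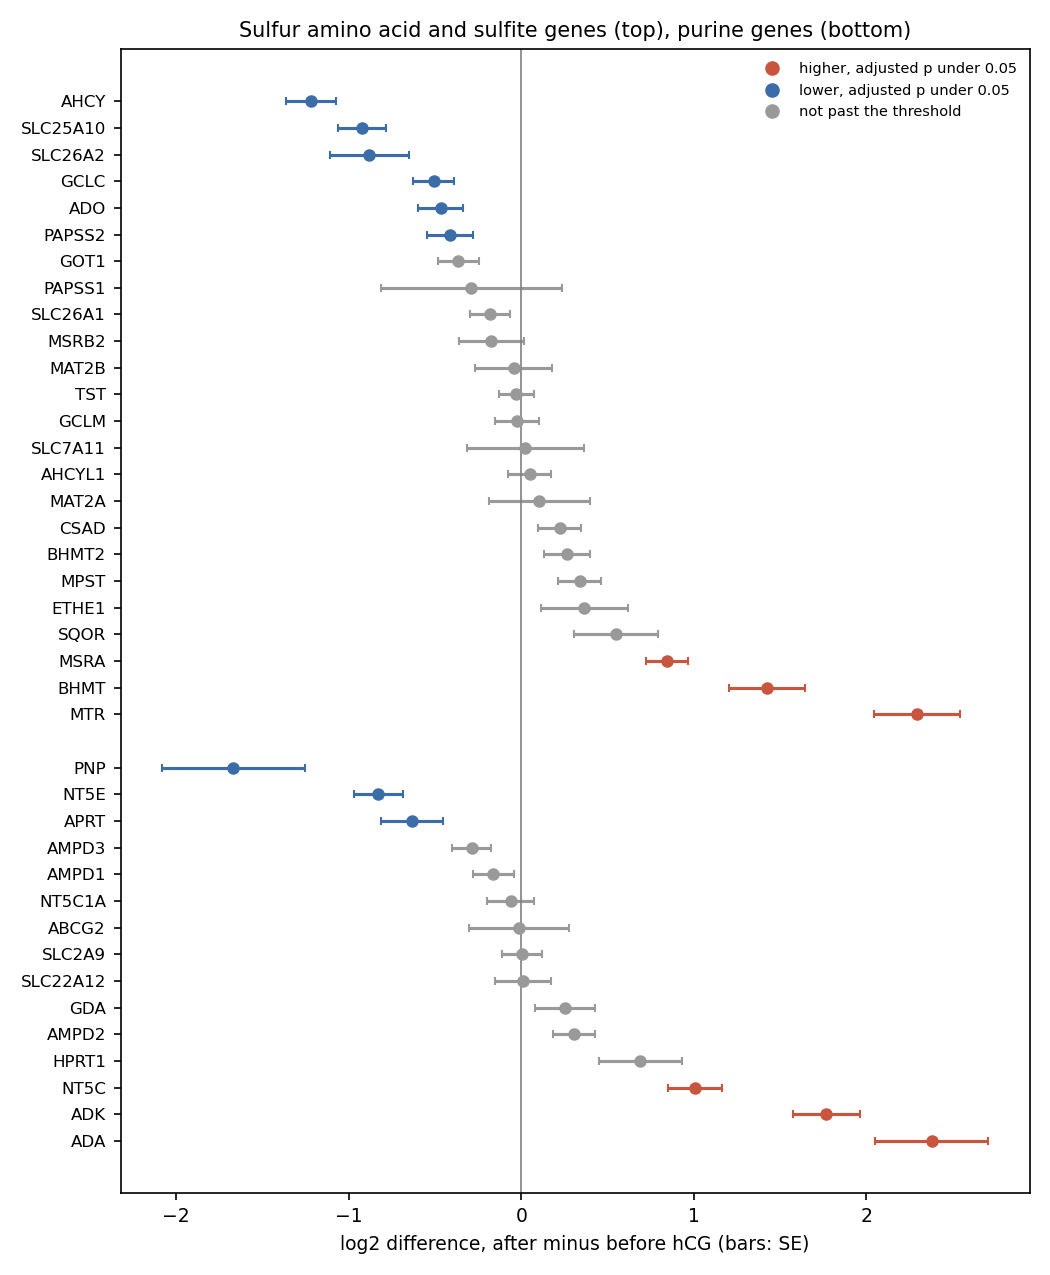
Log2 difference, after minus before hCG, with its SE (horizontal axis) for 24 genes of sulfur amino acid and sulfite metabolism (top) and 15 genes of purine breakdown and salvage (bottom), 4 arrays per group; red and blue mark genes past an adjusted p of 0.05. Both lists spread to either side of 0, from -1.22 (AHCY) to 2.29 (MTR) and from -1.67 (PNP) to 2.38 (ADA).

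The genes whose pattern over the 8 arrays was most like that of MOCOS were PPP3CC, a catalytic subunit of calcineurin (Pearson r = 0.998), PRKCH, a protein kinase C (0.997), APCDD1, an inhibitor of WNT signals (0.996), TTYH2, a membrane protein of the tweety family (0.996), and ANXA2, an annexin that binds membranes (0.995). They were picked for this likeness, and with 2 groups of 4 arrays it mostly restates the step between the groups: 339 genes had an r above 0.95. Genes with symbols starting with LOC were left out of the ranking and of this count. Their steps were of different height, from 2.74 for PPP3CC to 5.74 for APCDD1. ANXA2 rose by 4.19 on the brighter of its probe sets only, with -0.34 on the other.

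The genes most like the brighter SUOX probe set were CDT1, which licenses DNA replication (r = 0.996), ADGRL1, an adhesion receptor (0.994), CHAF1A, a subunit of chromatin assembly factor 1 (0.993), TMEM161A, a membrane protein (0.993), and SPC25, a kinetochore protein (0.990). There 215 genes had an r above 0.95, again with LOC symbols left out of ranking and count. Their differences ran from -0.45 for ADGRL1 to -1.21 for CHAF1A, of which all 4 probe sets were lower.

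**Figure D4:**
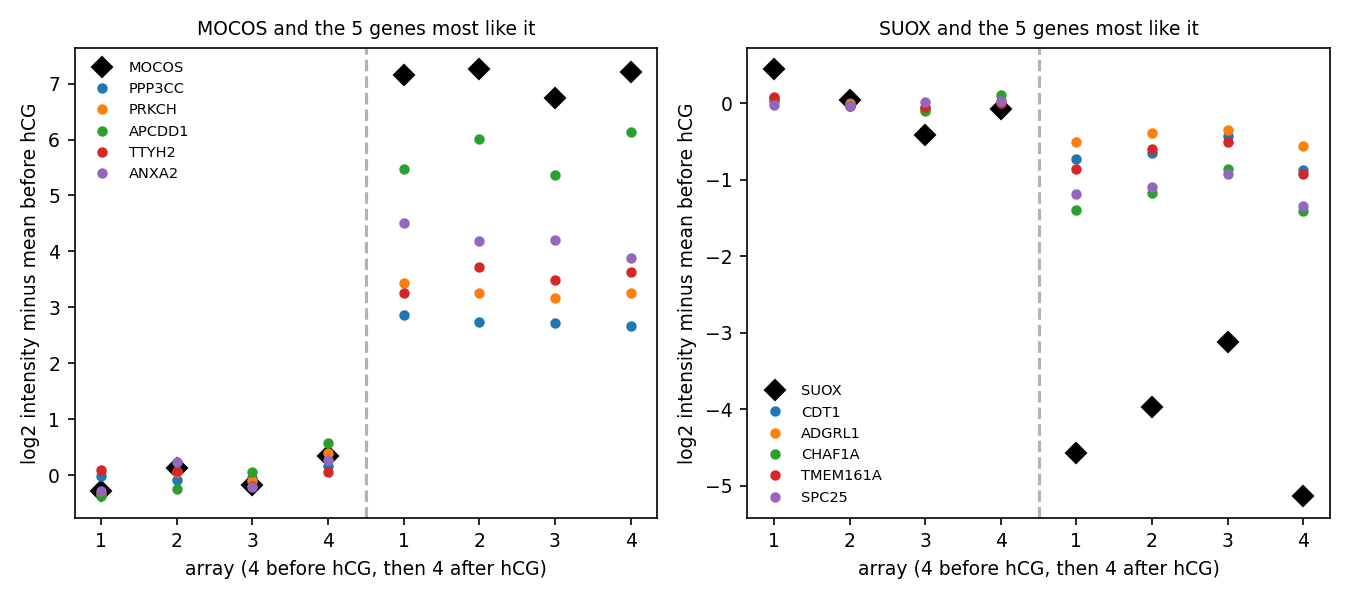
Log2 intensity minus the gene's mean before hCG (vertical axis) on the 4 arrays before and the 4 arrays after hCG, for MOCOS (left) and the brighter SUOX probe set (right), each with the 5 genes of highest Pearson r to it (LOC symbols left out). The steps of the 5 genes run from 2.74 to 5.74 on the left, where MOCOS has 7.09, and from -0.45 to -1.21 on the right, where SUOX has -4.20; all were picked by values of these arrays.

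The nearest measured genes on the chromosome were described as well. In the gene order of the assembly T2T-MMU8v2.0, MOCOS lies between FHOD3, a formin that organises actin, and ELP2, a subunit of Elongator. FHOD3 differed by -0.18 (adjusted p = 0.589) and ELP2 by -0.34 (adjusted p = 0.127); the average of the 4 ELP2 probe sets differed by -0.35 and passed (adjusted p = 0.0168). Next to these, TPGS2 was at 8.002 ± 0.16 before and 7.99 ± 0.31 after hCG (SD, n = 4).

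SLC39A6, a zinc importer beyond ELP2, rose by 1.18 (SE 0.18, adjusted p = 0.00132), with 3 of its 4 probe sets past the threshold. It was 8.47 to 9.08 before and 9.56 to 10.16 after hCG.

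SUOX lies between RAB5B, for which no value was used here, and IKZF4, a zinc finger protein that differed by -0.08 (adjusted p = 0.745). CDK2, a cell cycle kinase beyond RAB5B, fell by 0.97 (SE 0.20, adjusted p = 0.00573), and its other probe set was also lower (-0.53). PMEL, a protein of pigment cells, differed by -0.19 (adjusted p = 0.213). RPS26, a ribosomal protein with near-identical copies that probes may also bind, was at 11.64 ± 0.21 before and 11.70 ± 0.21 after hCG (SD, n = 4).

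**Figure D5:**
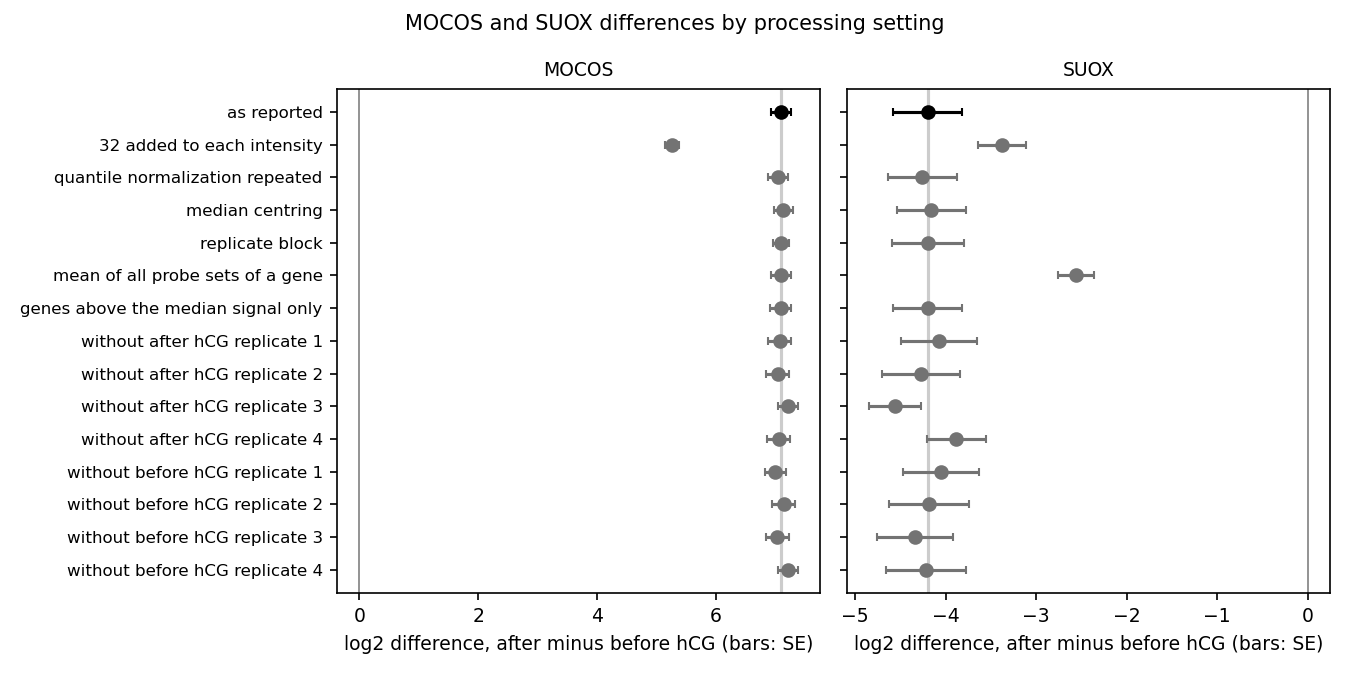
Log2 difference, after minus before hCG, with its SE (horizontal axis) of MOCOS (left) and of the brighter SUOX probe set (right) under each processing setting. MOCOS moves to 5.25 with 32 added to each intensity and SUOX to -2.56 when its probe sets are averaged, while leaving out any 1 array gives 6.998 to 7.21 and -4.56 to -3.88.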

How the data were processed

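The authors deposited 1 table of linear intensity values for 8 arrays, for which the submitters' processing notes name Affymetrix Expression Console and RMA without versions. Per the labels' protocols, 50 ng of RNA was amplified linearly before labelling with biotin. From the 52865 rows, 99 controls were left out and log2 was taken. A single symbol was given to 24956 probe sets, and a gene is represented by its probe set with the highest mean (14132 genes). Groups were compared with limma 3.58.1 in R 4.3.3 (lmFit, eBayes), after minus before hCG, with Benjamini-Hochberg adjustment over all genes and a threshold of 0.05; adjusted p-values over all probe sets are named as such. The fit was tested on simulated data with independent noise for each probe set. Those data hold no effects shared by a whole array, so they do not test the calls on these arrays. No detection calls were used, and 4 arrays per group set the precision.

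MOCOS, SUOX and all gene lists were chosen with earlier results of these data known. The lists cover cofactor synthesis, molybdenum enzymes and partners, sulfur amino acid and sulfite metabolism, purine breakdown and salvage, and markers of granulosa, theca, endothelial, leukocyte and oocyte cells. Named are all measured genes of the first 2 lists, up to 4 per direction past the threshold in the sulfur and purine lists, the 5 genes most like each of MOCOS and SUOX (symbols starting with LOC left out), the nearest 2 measured genes on either side, and CYP19A1 (FSHR had no matched probe set). Alternatives were an offset of 32, repeated quantile normalization, median centring, a replicate block, averaged probe sets, a filter on dim genes and leaving out each array. Arrays with the same replicate number were not treated as pairs, since the labels do not say whether they belong together. The assembly T2T-MMU8v2.0 was used only for names and gene order.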

Additional observations from a re-analysis of the deposited data

Results flagged for a closer look

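In 92 groups of 4 arrays (MOCOS, SUOX and the named genes, before and after hCG), 7 had 1 array far from the others, where chance gives about 1 in 20. None of them was a MOCOS or SUOX probe set. Array 1 before hCG was the high one for NFS1 (8.61, others 8.44 to 8.45), MTARC1 (7.95, others 7.39 to 7.40) and MTR (8.01, others 7.69 to 7.72). Array 3 before hCG was low for ADA (6.73, others 7.28 to 7.37) and TTYH2 (6.85, others 7.10 to 7.13). Array 4 before hCG was low for GPHN (8.004, others 8.35 to 8.38). Array 3 after hCG was high for TPGS2 (8.45, others 7.79 to 7.90).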

How the results depend on the processing

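MOCOS stayed higher and both SUOX probe sets stayed lower under every alternative that was run. With 32 added to each intensity the MOCOS difference was 5.25, and that of the brighter SUOX probe set was -3.38, the 5th largest decrease. When probe sets were averaged the SUOX difference was -2.56, the 23rd largest decrease. Leaving out each array gave 6.998 to 7.21 for MOCOS, -4.56 to -3.88 for SUOX, 2699 to 3348 genes past the threshold among all genes, 1 to 2 in the list of cofactor synthesis, 0 to 1 among enzymes and partners (2 to 3 with an unadjusted p under 0.05), 6 to 10 in the sulfur list and 4 to 6 in the purine list. The list of cofactor synthesis had 2 genes past the threshold with 32 added and 2 after repeated quantile normalization. The enzymes and partners had 2 after repeated quantile normalization, but 0 after median centring, 0 with the replicate block and 0 with dim genes left out (limma; 2 with an unadjusted p under 0.05 in each of these 3 settings). Same-numbered arrays deviated together only weakly (r = -0.014 to 0.152), beside highest values of 0.034 to 0.160 with arrays of another number. The numbers were not taken as pairs, but such weak correlations cannot decide whether same-numbered arrays share an animal. With the replicate block 3063 genes passed in place of 3359. Values near 0 changed sign: MOCS1 to 0.10 with averaged probe sets; RPS26 to -0.046 after repeated quantile normalization; and TPGS2 to 0.026 after median centring and 0.013 with averaged probe sets. Leaving out each array gave -0.035 to 0.145 for RPS26 and -0.169 to 0.061 for TPGS2. MOCOS passed the filter on dim genes only through its values after hCG. For the brighter SUOX probe set the filter leaned on its values before hCG, as 47.7% of probe sets had a lower mean after hCG.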
